A study of Oryza sativa with 4 samples.

Results

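Type-A response regulators are small receiver proteins at the output end of the cytokinin phosphorelay, the pathway by which the plant hormone cytokinin is sensed and answered. Receptor kinases pass phosphate through carrier proteins to type-B response regulators, which are transcription factors. Type-A genes are among the direct targets of the type-B factors. Their proteins carry the receiver domain without a DNA-binding part and act mostly as negative feedback on the same pathway, so their transcripts are widely used as a readout of cytokinin signalling in leaves and other tissues.

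The set comprised 9 rice genes, chosen by their gene IDs from a list of named type-A regulators (RR1 to RR7, RR9 and RR10), out of the 37858 IDs in the deposited table. All 9 IDs were present. Leaves of the cultivar Nipponbare, the japonica rice on which the reference genome is based, were sequenced in 4 libraries. The heated group (2 libraries) was leaf of the progeny of heat-treated seed, with a treatment label of 30 °C. The control group had 2 libraries titled as controls, of which control 1 has a treatment label of 25 °C and control 2 a label of 30 °C, the same as the heated libraries. Nothing states whether that label of control 2 was entered by mistake. All groups share cultivar and tissue. The labels give no length of treatment, plant age or generation count, and they do not say whether the libraries of a group came from separate plants, so the spread behind each p-value may be technical. The summed expected count was 17298384 in heated 1 and 16605260 in heated 2, against 15444235 in control 1 and 17214538 in control 2. The leaf label was not checked against marker genes here, because none of the marker IDs listed for it could be tied to a name.

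Values are given as RSEM's expected counts, in which reads that match several genes are divided among them, and as CPM, the same counts scaled to a common library size. Neither is divided by transcript length, so levels were compared between libraries and not between genes. Of the 9 genes, 4 had whole counts above 0 in every library, 3 had fractional counts in at least 3 libraries, and 2 were listed at 0 throughout. The 7 genes with counts passed the filter on low counts and were tested.

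The fractional counts came from a duplicate pair and from a neighbouring ID. RR9 (Os11g0143300) and RR10 (Os12g0139400), on chromosomes 11 and 12 by their IDs, are a near-identical pair on duplicated chromosome ends, and their joint loss has been reported to raise salt tolerance in rice. RR9 was assigned 2414 and 2230 counts in the heated libraries, against 2456 and 3656 in the controls. RR10 had 1510 and 1212 in the heated libraries, against 1401 and 2499 in the controls. All of these were fractional, and the fractions of the pair completed each other: the sums were exactly 3924 and 3442 in the heated libraries and 3857 and 6155 in the controls. Of 7370 other IDs with a fractional count in some library, RR10 was the 1 that completed RR9 to whole numbers in all 4 libraries (within 0.015), and the reverse held as well. Some reads were thus divided between RR9 and RR10.

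The division itself did not separate the groups. RR9 took 61.5% and 64.8% of the pair's counts in the heated libraries, against 63.7% and 59.4% in the controls, with means of 63.1% ± 2.3 and 61.5% ± 3.0 (SD, n = 2 each). The heated and control shares overlapped. Values for either gene alone depend on this division, and the sum does not.

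**Figure D1:**
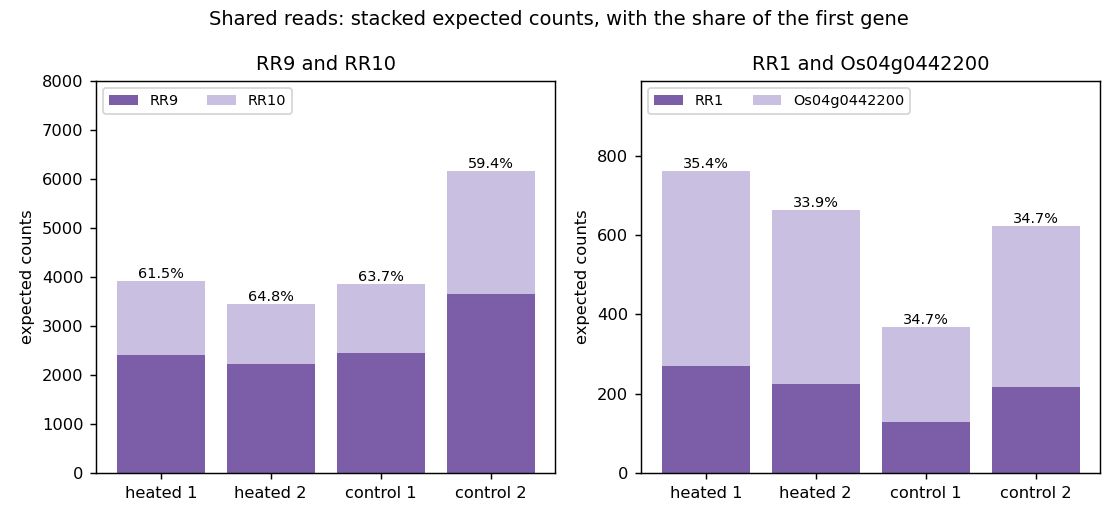
Stacked expected counts (vertical axis) of RR9 with RR10 (left) and of RR1 with Os04g0442200 (right) in each library, with the share of the first gene printed above each bar. The RR9 share lies between 59.4% and 64.8% and the RR1 share between 33.9% and 35.4%, while the height of the bars varies between libraries.

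RR1 (Os04g0442300), a gene linked in rice to the initiation of crown roots, also shared reads with Os04g0442200, an ID close to its own in number. No name or function is given here to Os04g0442200, which was singled out after its counts were seen. The expected counts of RR1 were 269 and 225 in the heated libraries, against 127 and 216 in the controls. Those of Os04g0442200 were 491 and 438 in the heated libraries, against 240 and 407 in the controls. The sums were whole, at 760 and 663 counts in the heated libraries and 367 and 623 in the controls. In heated 1 the counts of both IDs were themselves whole. Fractions thus completed each other only in the 3 libraries where RR1 was fractional. Os04g0442200 was the 1 ID that completed RR1 to whole numbers. RR1 held 35.4% and 33.9% of the pair in the heated libraries and 34.7% in each control, a share that was nearly constant. How many of the reads assigned to RR1 also matched Os04g0442200 cannot be read from the deposited counts. The labels do not say whether counting used the strand.

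The study asked which genes differ in leaves of the progeny of heat-treated seed. None of the 9 regulators passed the test (0 with a Benjamini-Hochberg adjusted p under 0.05, edgeR quasi-likelihood test), against a background of 0.699% of the 22184 genes tested (155 genes). By unadjusted p, 4 of the 7 tested regulators were under 0.05 (RR4, RR6, RR9 and RR10), where 9.23% of all tested genes were. The counts by the other tools were also 0: DESeq2's Wald test, limma with voom and edgeR's exact test called none of the regulators, while calling 2.36%, 0.591% and 3.3% of all tested genes. Leaving out 1 library gave 2 calls without control 1 (RR9 and RR10), against 2.18% of all genes, and 1 call without control 2 (RR4), against 10.9%. Without heated 1 and without heated 2 the count was 0, against 0.281% and 0.558% of all genes. The 4 genes are not independent of each other, because RR9 and RR10 share reads. In whole leaf, fewer cells of a type and less RNA per cell cannot be told apart.

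The regulators did not all lie on the same side. Both heated libraries lay above both controls for 3 genes (RR1, RR2 and RR4) and below both for another 3 (RR6, RR9 and RR10). Over all tested genes these shares were 21% and 19.5%. Groups did not overlap in 6 of the 7 tested regulators, against 40.5% of all tested genes. The median log2 fold change of the 7 tested regulators was -0.40, the value of RR6, and that of all tested genes was 0.0061. This median counts RR9 and RR10 separately and includes the scarce RR3. By sign, 3 of the 7 were higher and 4 lower, so it does not describe a shift shared by the set. With 2 libraries against 2, an exact two-sided permutation test of a single gene cannot give a p below 0.333, so no such test could pass.

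**Figure D2:**
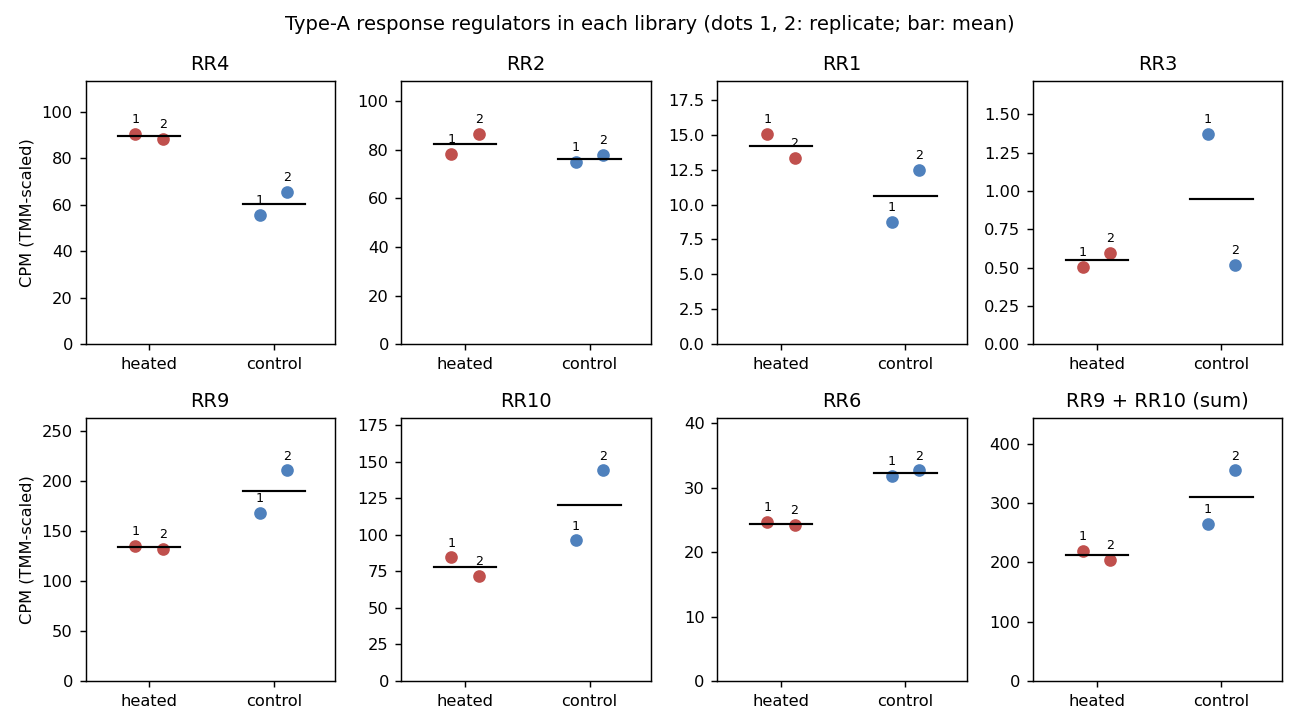
CPM (vertical axis, starting at 0, separate scale per panel) of the 7 detected type-A regulators and of the RR9 and RR10 sum in each library. Dots are libraries numbered by replicate and bars are group means. RR4 sits higher in both heated libraries, and RR6, RR9 and RR10 sit lower. Control 2 stands above control 1 for 6 of the 7 regulators, all but RR3, though only slightly for RR2 and RR6.

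RR9 and RR10 were lower in the heated libraries than in either control. RR9 had 135 and 132 CPM in the heated libraries, against 169 and 211 CPM in controls 1 and 2. RR10 had 84.6 and 71.8 CPM in the heated libraries, against 96.2 and 144 CPM in the controls. Control 2 was the highest library for both genes, and control 1 stood between it and the heated libraries.

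Summed, the pair had 220 and 204 CPM in the heated libraries, against 265 and 355 CPM in the controls. The means were 212 ± 11.1 CPM in heated leaves and 310.0 ± 63.8 CPM in control leaves (SD, n = 2 each). The log2 fold change of the sum was -0.55 (SE 0.18, 95% interval -0.99 to -0.10), with an unadjusted p of 0.0232 and an edgeR adjusted p of 0.409. Taken alone, RR9 had a log2 fold change of -0.51 (SE 0.16, edgeR adjusted p = 0.364) and RR10 one of -0.62 (SE 0.22, edgeR adjusted p = 0.435). The controls differed from each other as well: control 2 had 1.34 times the summed level of control 1, whereas heated 2 had 0.928 times that of heated 1. A wider control pair was seen over all tested genes too, with a median absolute log2 difference of 0.27, against 0.16 for the heated pair. Of all tested genes, 43.0% differed more between the controls than RR9 did, and 19.2% more than RR10.

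How far the pair differed thus depended on which control was used. Against control 2, which carries the same 30 °C label as the heated libraries, the summed level of heated 1 was 0.619 times and that of heated 2 was 0.575 times as high. Against control 1, labelled 25 °C, these ratios were 0.83 and 0.77. With control 1 left out, RR9 (log2 fold change -0.66, edgeR adjusted p = 0.0397), RR10 (-0.89, adjusted p = 0.016) and their sum (-0.75, adjusted p = 0.0297) passed the threshold. In that fit 2.18% of 23140 genes were called, and the single remaining control was assumed to vary like the heated libraries. With control 2 left out, the sum had a log2 fold change of -0.34 (edgeR adjusted p = 0.154).

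RR4 (Os01g0952500) was the regulator with the lowest unadjusted p. It had 1618 and 1491 counts, or 90.6 and 88.4 CPM, in the heated libraries, against 810 and 1134 counts, or 55.6 and 65.4 CPM, in the controls. All counts of RR4 were whole. The heated libraries were close together and both lay above both controls, which differed more from each other, as they did over all tested genes.

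The means of RR4 were 89.5 ± 1.6 CPM in heated leaves and 60.5 ± 6.9 CPM in control leaves (SD, n = 2 each). The log2 fold change was 0.56 (SE 0.14, 95% interval 0.23 to 0.90), a 1.48-fold higher level, with an unadjusted p of 0.00599 and an edgeR adjusted p of 0.212. By edgeR's exact test the adjusted p was 0.0506, and by DESeq2's Wald test it was 0.0862. RR4 passed the threshold in 1 setting, without control 2 (log2 fold change 0.67, edgeR adjusted p = 0.0152), where 10.9% of 22911 genes were called. Without control 1 its log2 fold change was 0.45 (edgeR adjusted p = 0.177).

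RR6 (Os04g0673300), whose overexpression in rice lowers sensitivity to cytokinin and gives dwarf plants, showed the closest replicates of the set. It had 24.7 and 24.2 CPM in the heated libraries, against 31.8 and 32.7 CPM in the controls. Its counts were whole, at 440 and 409 in the heated libraries and 463 and 567 in the controls. The libraries of each group were closer to each other than to any library of the other group.

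The means of RR6 were 24.4 ± 0.28 CPM in heated leaves and 32.2 ± 0.65 CPM in control leaves (SD, n = 2 each). The log2 fold change was -0.40 (SE 0.14, 95% interval -0.73 to -0.065), with an unadjusted p of 0.0263 and an edgeR adjusted p of 0.427. Its ratios to the controls were similar: heated 1 stood at 0.775 times control 1 and 0.754 times control 2, and heated 2 at 0.763 and 0.741 times. Leaving out any 1 library kept its log2 fold change between -0.42 and -0.39, with edgeR adjusted p-values of at least 0.117. Its unadjusted p was 0.0531 by DESeq2's Wald test and 0.0617 with a replicate block in edgeR. Grouped by the treatment label, its log2 fold change was -0.22 (edgeR adjusted p = 0.567).

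**Figure D3:**
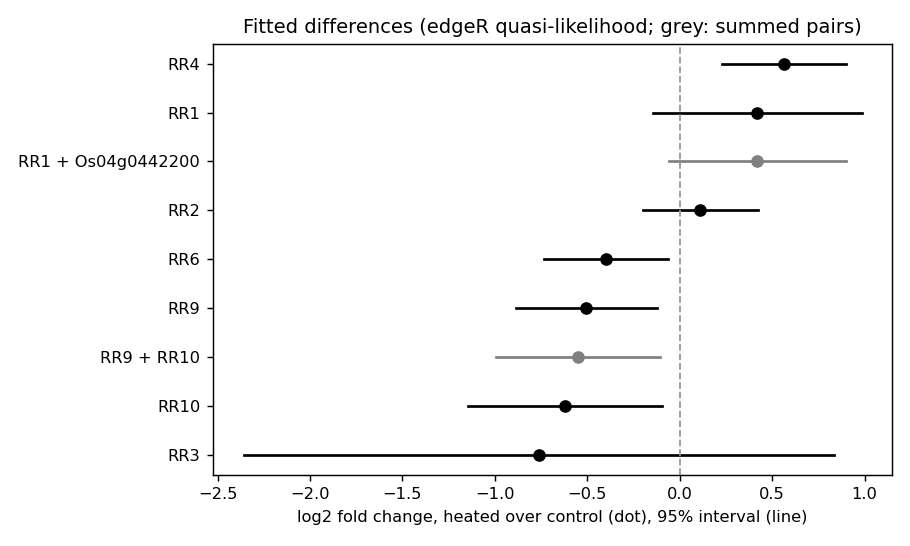
Fitted log2 fold changes of heated over control leaves (horizontal axis; dots) with 95% intervals (lines) for the 7 tested regulators and, in grey, for the summed pairs. The intervals of RR4, RR6, RR9 and RR10 exclude 0 before adjustment over all genes, those of RR1, RR2 and RR3 include it, and none passed after adjustment.

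RR1 had 15.1 and 13.3 CPM in the heated libraries, against 8.74 and 12.5 CPM in controls 1 and 2. Control 1 was the low library, and control 2 stood close under heated 2. Its log2 fold change of 0.42 (SE 0.23, 95% interval -0.14 to 0.98) did not pass the edgeR test, with an adjusted p of 0.667. Summed with Os04g0442200, the levels were 42.6 and 39.3 CPM in the heated libraries, against 25.2 and 35.9 CPM in the controls, and the log2 fold change was again 0.42 (SE 0.20, edgeR adjusted p = 0.61). Control 2 had 1.43 times the RR1 level of control 1, close to the 1.34 between the group means. Without control 2 the log2 fold change was 0.69 for RR1 alone and for the sum, and without control 1 it was 0.18 for both. Each of these fits rests on 1 control, so only the size is given.

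RR2 (Os02g0557800), reported as a direct target of a WUSCHEL-related factor in crown roots, differed least. It had 78.4 and 86.6 CPM in the heated libraries, against 74.9 and 77.9 CPM in the controls. Heated 1 was nearly level with control 2. The fitted log2 fold change, 0.11 (SE 0.13), had an adjusted p of 0.852 in edgeR. The 95% interval from -0.20 to 0.42 allows a level between 0.87 and 1.34 times that of control leaves.

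RR3 (Os02g0830200) was scarce. It had 9 and 10 counts in the heated libraries, against 20 and 9 in controls 1 and 2, corresponding to 0.504 and 0.593 CPM in the heated libraries and 1.37 and 0.519 CPM in the controls. The heated libraries and control 2 were alike, and control 1 alone was higher. Over the group sums of 19 and 29 counts, the heated level was 0.602 times the control level, with an 95% counting interval (exact) of 0.319 to 1.11 that covers counting error only. The edgeR log2 fold change was -0.76 (SE 0.66, adjusted p = 0.793), and it changed sign, to 0.072, without control 1.

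RR5 (Os04g0524300) and RR7 (Os07g0449700) were listed at 0 in all 4 libraries. A count of 0 allows up to 3 counts per library, or 0.168 and 0.178 CPM in the heated libraries and 0.206 and 0.173 CPM in the controls. Neither gene was detected, and no comparison was possible for either. These limits cover counting error only, and not how reads were assigned to genes.

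The opposite positions of RR4 and of the RR9 and RR10 pair can be expressed within each library, where the scaling of library sizes cancels. The ratio of RR4 to the summed pair in expected counts was 0.412 and 0.433 in the heated libraries, against 0.21 and 0.184 in the controls. The means were 0.423 ± 0.015 in heated leaves and 0.197 ± 0.018 in control leaves (SD, n = 2 each), 2.15-fold apart. Here the controls lay close together although they differed in the level of each gene, because RR4 and the pair were both higher in control 2 than in control 1. This ratio was formed after the values of the genes had been seen, so it is a description with no test.

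RR1 to the same pair had ratios of 0.0685 and 0.0653 in the heated libraries and 0.033 and 0.0351 in the controls. RR6 to the pair did not separate the groups, with 0.112 and 0.119 in the heated libraries and 0.12 and 0.0921 in the controls. RR2 to the pair was also higher in both heated libraries, at 0.357 and 0.425, against 0.283 and 0.219 in the controls. RR4, RR1 and RR2 all stood higher against the pair in heated leaves, while the ratio of RR6 to it overlapped between the groups. Each of RR4, RR1 and RR2 already had both heated libraries above both controls, and the pair had both below. Their ratios to the pair therefore had to separate the groups and are no further result.

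The summed level of the 9 genes was 429 and 417 CPM in the heated libraries, against 437 and 544 CPM in the controls. Control 1 stood close to the heated libraries in this sum and control 2 stood apart. RR9 and RR10 together held 51.2% and 48.9% of the counts in the heated libraries and 60.6% and 65.3% in the controls. RR4 held 21.1% and 21.2% in the heated libraries and 12.7% and 12% in the controls. These shares compare libraries and do not rank the genes, since counts are not divided by length. Like the ratios to the pair, they restate the levels given above and are no further result.

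**Figure D4:**
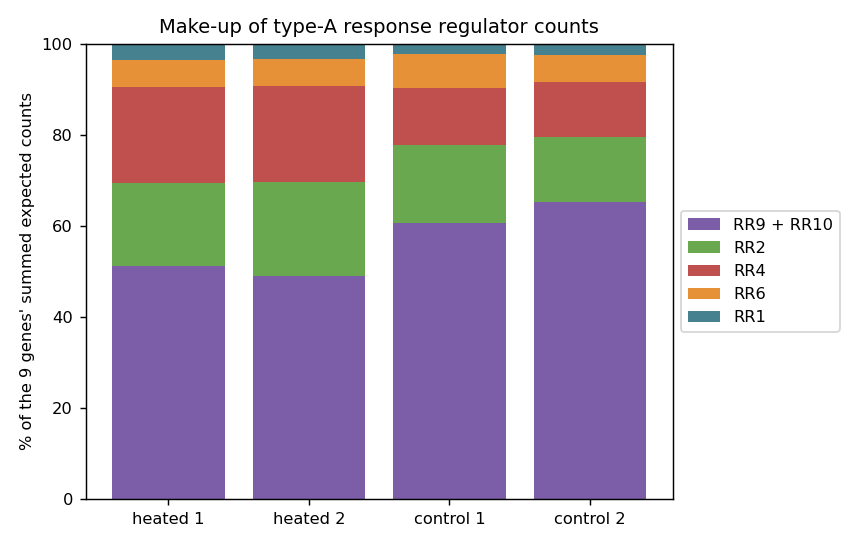
Share of each gene in the summed expected counts of the 9 type-A regulators (vertical axis, percent) in each library; RR3 is too small to draw, and RR5 and RR7 are at 0. RR9 and RR10 fill 51.2% and 48.9% of the heated bars and 60.6% and 65.3% of the control bars, and RR4 takes about 21% of the heated and 12% of the control bars.

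Because control 2 carries the 30 °C label, the same genes were also compared by that label, as control 2 and both heated libraries against control 1. None of the 9 regulators passed (0 called, against 0.747% of 23285 genes), and the order of the genes differed from that by title. RR1 had a log2 fold change of 0.64 (edgeR adjusted p = 0.152), RR4 one of 0.55 (edgeR adjusted p = 0.225) and RR3 one of -1.34 (edgeR adjusted p = 0.257). The RR9 and RR10 sum stood at -0.028 (edgeR adjusted p = 0.97). With 1 library at 25 °C, the label and that library cannot be told apart.

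**Figure D5:**
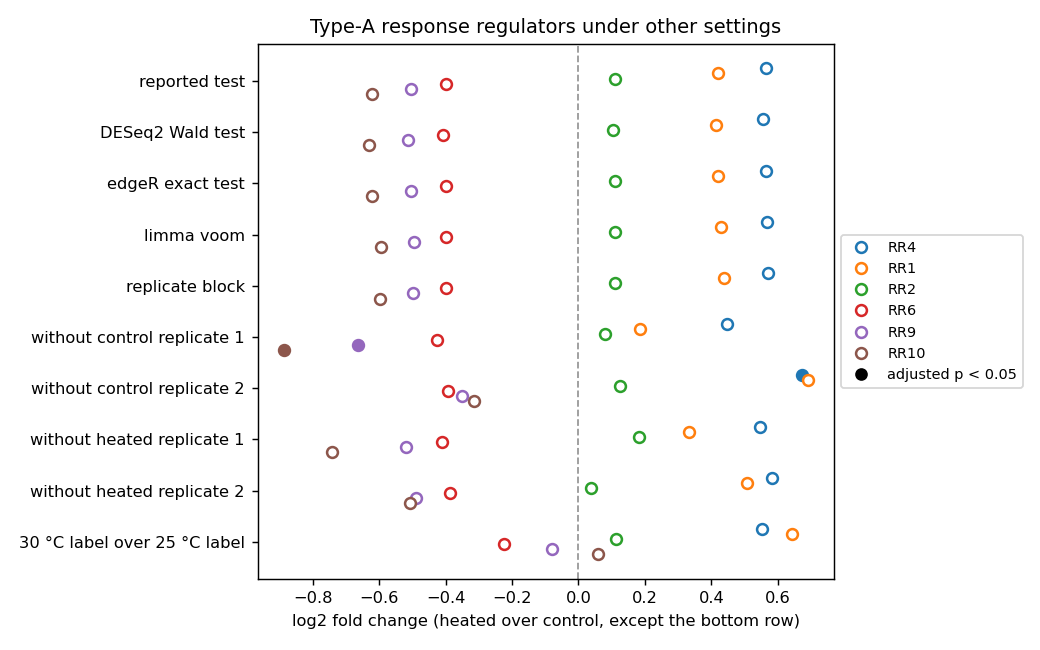
Log2 fold changes (horizontal axis) of 6 regulators under the reported test and 9 other settings, 1 setting per row; filled dots mark an adjusted p under 0.05. RR4, RR1 and RR2 lie right of 0 and RR6, RR9 and RR10 left of 0 in every row drawn that groups libraries by title, and filled dots appear without control 1 (RR9 and RR10) and without control 2 (RR4).

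Across the 4 libraries, the genes whose pattern was nearest to that of RR9 were Os04g0154800 and Os03g0391700. Likeness was the root mean square distance of log2(CPM + 0.5), centred on each gene's mean, over the 20586 other tested genes that averaged 1 CPM or more. The distances were 0.0106 and 0.0304. Os04g0154800 had 25.7 and 25.6 CPM in the heated libraries, against 32.1 and 40.4 CPM in the controls. Among the regulators, RR6 (distance 0.112) and RR10 (0.126) came nearest to RR9, at ranks 207 and 294, and RR4 was far from it, with a distance of 0.531 at rank 18220. The distance of RR10 is in part set by the reads divided between it and RR9. With 4 libraries, such distances describe these libraries only.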

How the data were processed

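The authors deposited expected counts for each gene, from RSEM's gene-level output per the file headers, without normalization. The submitters' processing notes name the genome build IRGSP-1.0, edgeR 3.26.3, RSEM, Bowtie2, Trimmomatic and FastQC 0.11.7; the sources used here do not give settings, annotation or strand. Libraries were grouped by title. The 9 genes, their names and the lists were chosen with earlier results of these data known. Of the 9 names, 8 occur in the RefSeq table at hand (assembly ASM3414082v1), all 8 on the chromosome that the ID gives, but that table holds 0 of the 9 IDs, so names rest on the list that defined the set. A further 54 IDs of the cytokinin pathway and of marker genes matched 0 entries and were not analysed here. The rule for named genes took all 9, the RR9 and RR10 sum and the 2 genes nearest to the member with the highest mean CPM.

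In R 4.3.3, rounded expected counts of all 4 libraries were fitted with edgeR 4.0.16 (glmQLFit and glmQLFTest, a quasi-likelihood test) with no term but group (filterByExpr, minimum count 10, minimum total 15; TMM scaling; Benjamini-Hochberg adjustment over all 22184 tested genes). CPM used the same scaled sizes and unrounded counts. The standard error is the size of the log2 fold change over the square root of F, and intervals are at 95%. Alternatives used DESeq2 1.42.0, limma 3.58.1 with voom, edgeR's exact test, other scalings and filters, a replicate block, each library left out in turn, and grouping by treatment label. The fit was also run on simulated counts with the same replicate spread for every gene and with changes larger than those fitted for the regulators. That run therefore does not cover differences as small as theirs, or groups of unequal spread. Floors and counting intervals cover counting error only. The table had 0 columns of other samples.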

Additional observations from a re-analysis of the deposited data

How the results depend on the processing

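The count of 0 called regulators held under every alternative that kept all 4 libraries. Leaving out 1 library gave 0 to 2 called: RR9 and RR10 without control 1, RR4 without control 2 and 0 without either heated library. The 155 genes called over the whole table became 419 without a filter on low counts, 551 with DESeq2's Wald test, 732 with edgeR's exact test and 532 with the replicate block, and ranged from 64 to 2506 when 1 library was left out. The replicate block called 0 regulators, with an adjusted p of 0.185 for RR4; the numbers were not taken to pair libraries (correlation of replicate differences -0.0145 between groups). Of 136 values of single genes or summed pairs under an alternative, 129 kept their direction and their side of the threshold. These include refits that summed RR9 with RR10, or RR1 with Os04g0442200. There the other genes were unchanged and had little room to move. Another 2 turned: RR10 to 0.059 by the treatment label and RR3 to 0.072 without control 1 (range of RR3 with 1 library left out, -1.33 to 0.072). The remaining values came to pass the threshold only with 1 control left out. They were RR9, RR10 and their sum without control 1, and RR4 and the sum of RR1 with Os04g0442200 without control 2. Summing RR1 with Os04g0442200 was added after seeing the data. The cause was not tested. With 10 counts in every library RR3 was not tested. With 2 libraries per group, the 95% intervals reached from 0.312 (RR2) to 0.563 (RR1) on the log2 scale either side of the estimate for the 6 regulators other than RR3, RR5 and RR7.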
